A study of Rattus norvegicus with 11 samples.

Results

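The endothelial genes followed here were Pecam1, Cdh5, Kdr, Flt1, Tek, Vwf, Cldn5, Tie1 and Eng, 9 genes that mark the cells lining blood vessels. A probe was taken as a member's when the RefSeq accession printed on the array for it belonged to that gene. Of the 9 genes, 5 had such a probe (Pecam1, Cdh5, Flt1, Tek and Cldn5), each with 1 probe and 1 spot among the 24684 probes of the array. Kdr, Vwf, Tie1 and Eng were matched to no probe in this way and were not analysed here.

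The samples were trigeminal ganglia (TRG), the ganglia that hold the cell bodies of the sensory neurones of the face and the meninges, from male Wistar rats. Each rat had received under the skin 50 µl of complete Freund's adjuvant (CFA, killed mycobacteria in oil at 1 mg/ml) on 1 side of the face, in the area that bears the whiskers, under ketamine and xylazine anaesthesia, 7 days before. The CFA group held 6 ganglia of the injected side (rats 1, 2, 3, 5, 6 and 8). The contralateral group held 5 ganglia of the uninjected side of the same animals (rats 1, 2, 3, 5 and 6). The rats were numbered by the sample titles, and equal numbers were taken as 1 animal. The contralateral ganglia therefore came from rats that carried an inflamed face and the same anaesthesia, and no ganglion of an untreated rat was among the arrays. No age of the rats was stated. The animals were killed by exsanguination, and the methods mention no flushing of the vessels.

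Endothelial cells form the inner wall of every vessel. Their growth and survival depend on vascular endothelial growth factor (VEGF), which acts through the receptor Kdr, while Flt1 binds VEGF tightly and signals weakly. Angiopoietins act through the receptor Tek (also called Tie2), with Tie1 as its partner, and keep the vessel wall quiet or loosen it. Pecam1, Cdh5 and Cldn5 join neighbouring endothelial cells, Cldn5 as the main claudin of tight junctions where a blood-nerve or blood-brain barrier exists. Vwf is the clotting protein that these cells store, and Eng is a co-receptor of TGF-beta and BMP signals. The blood vessels of a sensory ganglion are known to be leakier than those of the nerve beside it.

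The 11 arrays had median processed signals of 74.6 to 117 on the CFA side and 87.9 to 96.4 on the contralateral side, in linear scanner units. On the CFA side 68.9 to 82.3% of spots were well above background by the scanner software, and on the contralateral side 71.6 to 82.8%. By their scan times, the arrays lay on 5 slides. Slide 2 held CFA 1 with contralateral 5 and contralateral 6, and was the only slide with ganglia of both groups. Contralateral 3 lay on slide 1, contralateral 1 and 2 on slide 3, CFA 2 and 3 on slide 4, and CFA 5, 6 and 8 on slide 5. Slides 1 to 3 were scanned on one day and slides 4 and 5 on a day each, so side and slide overlap almost wholly, and the main differences are also given within slide 2.

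Promoter sequences are shown for Flt1 and Cldn5, whose levels had the highest correlation among the members (given below). They come from RefSeq (assembly GRCr8) and run from 250 bases before to 50 bases after the gene's start, 5′ to 3′ on the gene's strand. Capitals mark the letters GGAA or TTCC, the core that transcription factors of the ETS family recognise, which takes part in the expression of many endothelial genes.
Flt1, chr12:12333180-12333479, plus strand: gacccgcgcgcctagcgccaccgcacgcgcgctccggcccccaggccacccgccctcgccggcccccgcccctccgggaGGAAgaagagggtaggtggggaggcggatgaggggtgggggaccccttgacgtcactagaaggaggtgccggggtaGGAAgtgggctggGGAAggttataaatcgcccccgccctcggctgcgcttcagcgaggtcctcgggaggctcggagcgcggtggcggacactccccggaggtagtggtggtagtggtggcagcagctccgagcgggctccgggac
Cldn5, chr11:95718549-95718848, minus strand: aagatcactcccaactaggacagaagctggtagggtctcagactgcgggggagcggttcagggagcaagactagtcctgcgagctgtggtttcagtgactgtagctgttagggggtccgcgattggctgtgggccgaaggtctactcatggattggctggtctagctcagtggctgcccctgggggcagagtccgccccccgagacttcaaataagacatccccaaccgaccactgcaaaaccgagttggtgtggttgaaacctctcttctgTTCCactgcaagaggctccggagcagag
The Flt1 window held 3 such cores on either strand, and the Cldn5 window held 1. The same letters occurred at least once in 95.8% of the 33469 promoters of the table, with a median of 3, and 67.0% of promoters held as many as Flt1 or more. GGAA and TTCC are each other's reverse complement, so both strands are covered, and a match is a description of letters only. The promoter table held 5 of the members (Kdr, Flt1, Cldn5, Tie1 and Eng).

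All values below are log2 of the normalised signal. Levels of different probes are not comparable, since probes differ in how strongly they bind. Of the 5 members with a probe, 4 (Pecam1, Flt1, Tek and Cldn5) were well above background on all 11 arrays. In a bulk ganglion fewer endothelial cells and less RNA per cell cannot be told apart. Of the 4, Tek and Cldn5 were lower in the CFA group at an unadjusted p of 0.05 or less, by 18.8 and 16.9%, while Flt1 and Pecam1 differed by less than the spread between ganglia. No member reached an adjusted p of 0.05, and neither did any other of the 24684 probes, whose smallest limma adjusted p was 0.0677.

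Tek is the receptor for angiopoietins on endothelial cells. Its signal was 12.27, 12.01, 11.77, 11.89, 12.10 and 12.14 in CFA ganglia (rats 1, 2, 3, 5, 6 and 8), and 12.50, 12.29, 12.31, 12.20 and 12.35 in contralateral ganglia (rats 1, 2, 3, 5 and 6). CFA 1 lay among the contralateral values, and the other 5 CFA ganglia lay below every contralateral ganglion. Tek averaged 12.03 ± 0.18 in CFA ganglia (SD, n = 6) and 12.33 ± 0.11 in contralateral ganglia (SD, n = 5), and the log2 change was -0.30 (SE 0.10, 95% interval -0.53 to -0.08), which is 18.8% lower. The limma p was 0.0136 and the Benjamini-Hochberg adjusted p over all probes 0.394, while the two-sided exact permutation test over the arrays gave p = 0.00866. Tek was lower on the CFA side in 5 of 5 rats, by -0.23, -0.28, -0.54, -0.31 and -0.25 in rats 1, 2, 3, 5 and 6. Within slide 2 the difference was -0.01, where 1 CFA ganglion met 2 contralateral ganglia of other rats. With slide as a block in the limma fit the change was -0.01 (95% interval -0.43 to 0.41). That fit repeats the slide 2 difference, since no other slide held both groups.

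Cldn5 is the tight junction protein of barrier endothelium. Its signal was 13.17, 13.16, 12.91, 12.76, 12.79 and 12.70 in CFA ganglia, and 13.04, 13.06, 13.44, 13.17 and 13.19 in contralateral ganglia, in the same order of rats. The groups overlapped through CFA 1 and 2, and the 4 other CFA ganglia, 3 of them on slide 5, were below every contralateral ganglion. Cldn5 averaged 12.92 ± 0.21 in CFA ganglia (SD, n = 6) and 13.18 ± 0.16 in contralateral ganglia (SD, n = 5), a log2 change of -0.27 (SE 0.12), or 16.9% lower. The limma p was 0.0469, the adjusted p 0.459 and the exact permutation p 0.0411. Cldn5 was lower on the CFA side in 3 of 5 rats, and with the rat as a block the change was -0.22 with a 95% interval of -0.57 to 0.13, so the call was lost. Within slide 2 the difference was -0.01. Its call was also lost without any one of CFA 3, 5, 6 and 8 or contralateral 3, 5 and 6, with changes of -0.32 to -0.20 over all arrays left out in turn.

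Flt1 is the high-affinity VEGF receptor. Its signal was 7.02, 6.75, 6.50, 6.65, 6.54 and 6.53 in CFA ganglia, and 6.87, 6.70, 7.37, 6.85 and 6.49 in contralateral ganglia. Contralateral 3, alone on slide 1, had the highest value of all arrays. Flt1 averaged 6.67 ± 0.20 in CFA ganglia (SD, n = 6) and 6.85 ± 0.32 in contralateral ganglia (SD, n = 5), with a log2 change of -0.19 (SE 0.16, limma p = 0.25, adjusted p = 0.635, exact permutation p = 0.275). It was lower on the CFA side in 2 of 5 rats. Within slide 2 the sign was turned, with 0.35 more in CFA 1 than in the mean of contralateral 5 and 6.

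Pecam1, also called CD31, is an adhesion molecule at the contacts between endothelial cells and is carried by platelets and some leukocytes as well. Its signal was 8.25, 8.45, 8.44, 8.65, 9.08 and 8.68 in CFA ganglia, and 8.97, 8.94, 8.22, 8.45 and 9.0 in contralateral ganglia. Both groups spanned almost the whole range, and CFA 6 and contralateral 6, from the same rat, were the highest of their groups. Pecam1 averaged 8.59 ± 0.29 in CFA ganglia (SD, n = 6) and 8.72 ± 0.36 in contralateral ganglia (SD, n = 5), with a log2 change of -0.12 (SE 0.19, 95% interval -0.53 to 0.29, limma p = 0.522, adjusted p = 0.795, exact permutation p = 0.539). It was lower on the CFA side in 2 of 5 rats, and the difference within slide 2 was -0.47.

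Cdh5, the cadherin of endothelial adherens junctions and a defining marker of these cells, was not well above background on any of the 11 arrays. Its measured values ran from 0.98 to 3.74 in CFA ganglia and from 0.99 to 3.08 in contralateral ganglia, and no fold is given for it. The label of endothelial RNA therefore rests on the other probes. Beside the members, 12 of 15 further endothelial markers with a probe were well above background on all 11 arrays. With these 12, Flt1 and Cldn5 had a median r of only -0.08 and -0.03 across the arrays (given below).

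**Figure D1:**
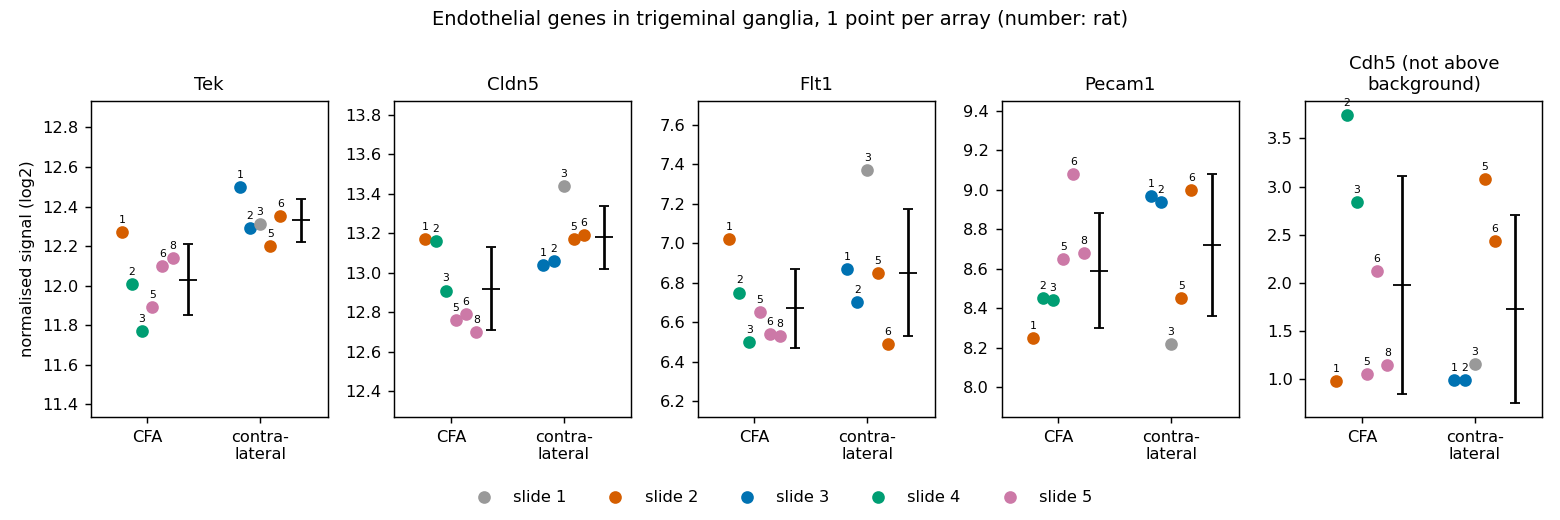
Normalised signal (log2, y axis) of the 5 members with a probe in CFA ganglia (left, n = 6) and contralateral ganglia (right, n = 5). Each point is 1 array, numbered by rat and coloured by slide, bars give the mean and SD, and the first 4 panels span the same range. In Tek, 5 of the 6 CFA ganglia lie below every contralateral ganglion, and CFA 1 lies among them.

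The whole array gives the background for these counts. At the study's threshold (p of 0.05 or less and a fold over 2 in either direction) 2.02% of all probes were called and 0 of the 4 members measured. At a p of 0.05 or less with no fold limit, 6.75% of all probes were lower in CFA ganglia, against 2 of the 4 members. A further 4.02% of all probes were higher, against 0 of the 4, and 10.8% passed in either direction. Of the 17512 probes that, like the 4 members, were well above background on all arrays, 5.22% were lower and 8.79% passed in either direction. The median log2 change of the 4 members was -0.23, against -0.04 over all probes, of which 57.5% were below 0.

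**Figure D2:**
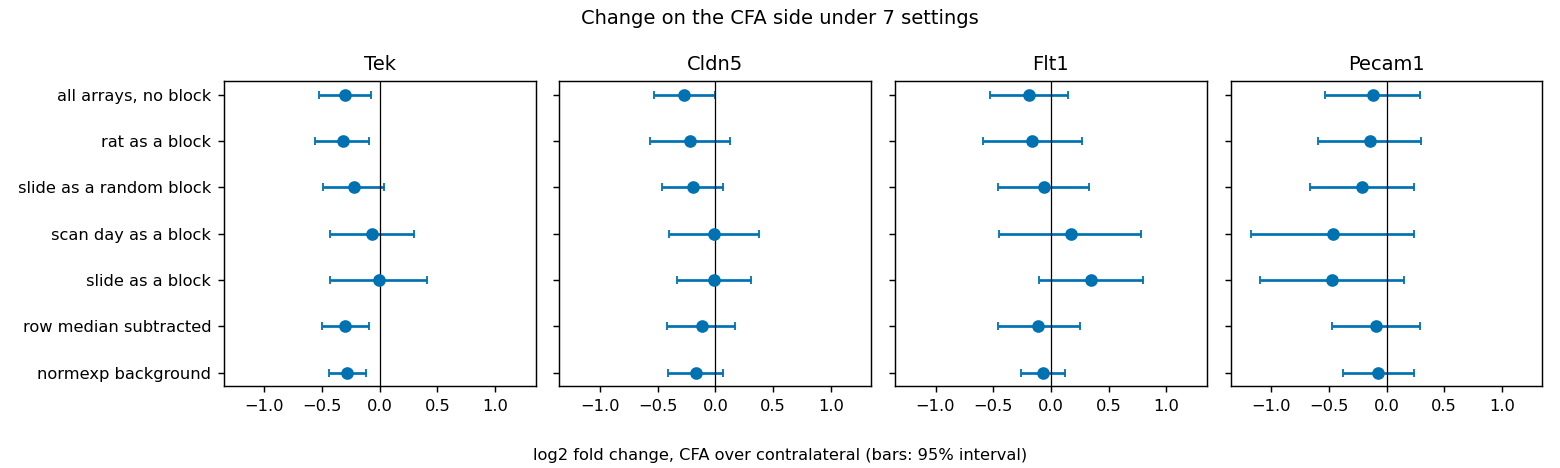
Log2 fold change of CFA over contralateral (x axis, points) with its 95% interval (bars) for Tek, Cldn5, Flt1 and Pecam1 under 7 settings of the limma fit (rows). Tek lies at -0.30 without a block and at -0.01 with slide as a block, and Flt1 moves to the other side of 0 with slide as a block (0.35). With slide or scan day as a block, the change rests on CFA 1 alone on the CFA side.

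The position of a spot on the array also moved with the comparison for Cldn5 and Flt1. Its spot lay in row 310 of 532, where the median log2 change of single-spot probes within 10 rows was -0.14, and that of Tek lay in row 143, where this median was -0.06. After the running median over array rows was subtracted, Tek had a log2 change of -0.30 (adjusted p = 0.393) and Cldn5 of -0.12 (adjusted p = 0.715), and of both Tek alone kept an unadjusted p of 0.05 or less. Flt1, in row 231 where the median of its neighbours was -0.12, went from -0.19 to -0.11. The median of the 4 members went from -0.23 to -0.11.

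Across the arrays, r between the 4 measured members ran from -0.61 to 0.74. The 10 pairs of the 5 members were correlated over the 11 arrays, which come from 6 rats and share slides, and none passed an adjusted p of 0.05. Flt1 and Cldn5 had the highest value, with Pearson's r of 0.74 (permutation p = 0.00808, adjusted p = 0.0808) and Spearman's rho of 0.47 (permutation p = 0.147). Without CFA 1 and contralateral 3, the arrays farthest from the median of Flt1, r was 0.47 (permutation p = 0.197), so the relation no longer passed without those arrays. With the mean of each slide removed r was 0.30, and with group means removed it was 0.70 (permutation p = 0.0181). Pecam1 and Flt1 ran against each other, with r of -0.61 (permutation p = 0.0381, adjusted p = 0.191) and rho of -0.53 (permutation p = 0.1). Without CFA 6 and contralateral 3 that r was -0.38, and with slide means removed it was -0.77. Tek had r of 0.50 with Cldn5, 0.44 with Flt1 and 0.28 with Pecam1. The 4 pairs with Cdh5 cannot be read, since its probe was below background.

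Pecam1 was instead close to the other endothelial markers. With the mean of the 12 such markers measured on every array (each standardised over the arrays), its r was 0.79 (permutation p = 0.00611, adjusted p = 0.147 over 24 relations) and its rho 0.69 (permutation p = 0.0227). Without CFA 6 and contralateral 3 the r was 0.85, and with slide means removed it was 0.84 (permutation p = 0.0989). The median of its r with the single markers was 0.48, against 0.08 over all probes well above background on every array, and Cd93, a receptor of the endothelial surface, was the closest with 0.85. Tek had a median r of 0.45 with the same markers, against 0.19 over all probes, and was closest to Adgrl4, an adhesion receptor of endothelial cells, with 0.70 and farthest from Ramp2, a subunit of adrenomedullin receptors, with -0.61. With the mean of mural cell markers (pericytes and vascular smooth muscle) Tek had r of 0.65 (permutation p = 0.0288, adjusted p = 0.259), and with that of the 12 endothelial markers 0.59 (permutation p = 0.0573, adjusted p = 0.259). With slide means removed these were 0.79 and 0.41, and without CFA 3 and CFA 5 they were 0.40 and 0.42. For Flt1 and Cldn5 these medians were -0.08 and -0.03. Pecam1 also had an r of 0.62 with the mean of mural cell markers, 0.62 with that of macrophage markers and 0.57 with that of red blood cell genes. With slide means removed these were 0.81, 0.84 and 0.74 (permutation p = 0.0634, 0.0138 and 0.036). Once slide means were removed, the closeness of Pecam1 was thus not particular to the endothelial markers. Flt1 had r of -0.50 with the red blood cell genes. Their part in the values of the members was not tested.

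**Figure D3:**
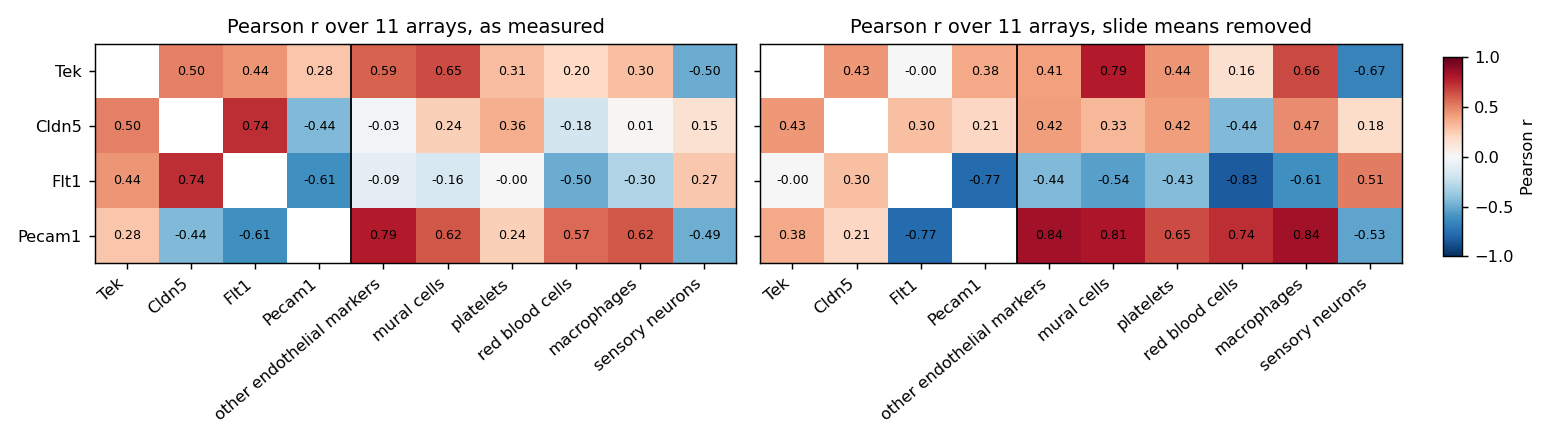
Pearson's r over the 11 arrays (colour and number) between the 4 members measured on every array (rows) and, in columns, each other and the mean of 6 marker lists, as measured (left) and with the mean of each slide removed (right). Pecam1 has r of 0.79 with the other endothelial markers as measured, and 0.84 with them and with the macrophage markers once slide means are removed, where Flt1 and Cldn5 have 0.30.

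By the rule for the most alike genes, the mean of the 5 members (each standardised) was compared with 11438 mRNA probes, and the closest by Pearson's r over the 11 arrays were Ednra, the endothelin receptor of vascular smooth muscle, with 0.95 and the taste receptor Tas2r136 with 0.95. Next came Lamtor4, a lysosomal adaptor, with 0.91, Tmem140 with 0.90 and Kcnmb1, a potassium channel subunit of smooth muscle, with 0.89. The triglyceride lipase Pnpla2 had 0.88, the sulfotransferase Tpst2 had 0.88 and Commd4 had 0.85. That mean includes Cdh5 at background level. Without Cdh5, a choice made after its values were seen, 1 of the 8 (Tmem140) stayed among the 8 most alike. Those 8 were Selenom (0.95), Tmem140 (0.95), Or2t47d (0.94), Spetex2c (0.94), Zg16b (0.93), Lad1 (0.93), Higd1b (0.93) and Lao1 (0.92). Both lists are the highest of 11438 values over 11 arrays, and how high such values run by chance was not tested. Every gene of both lists had a log2 change below 0, as had the 4 measured members. No r with slide means removed was computed for these genes.

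Genes of the pathways around the members were then examined, and a gene is said to have passed, or to be higher or lower, at an unadjusted limma p of 0.05 or less. At that p 10.8% of all probes passed, 6.75% lower and 4.02% higher. A single call in a list below is close to these shares. Of 8 ligands and co-receptors of the VEGF system with a probe, 1 was higher and 1 lower. Vegfd, a ligand of the lymphatic and vascular VEGF receptors, ran from 2.60 to 3.64 in CFA ganglia (median 3.21) and from 0.99 to 3.37 in contralateral ganglia (median 1.95). Its probe was clearly above background by the scanner's test in 2 of 6 CFA ganglia and in 0 of 5 contralateral ganglia. With both groups near background no fold is given beyond the fitted log2 change of 1.08 (adjusted p = 0.449), and within slide 2 it was -0.22. The call was lost when no background was subtracted (0.16), under normexp (0.05) and 75th percentile scaling (1.25), and with the rat as a block (1.03). Blocks of slide (-0.22) or scan day (0.96) and slide as a random block (0.74) also lost it. So did leaving out any one of CFA 1, 2, 5 and 8 or contralateral 1, 2 and 3, over which the change was 0.80 to 1.1. Vegfc, the other lymphatic ligand, had a log2 change of -0.38 (adjusted p = 0.42), and within slide 2 the sign was turned (0.06). Vegfa, the main ligand of Flt1 and Kdr, had a log2 change of 0.08 (adjusted p = 0.731), and Pgf, which binds Flt1, one of 0.08 (adjusted p = 0.78).

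Of the regulators of Tek, 3 had a probe and none passed. Angpt2, the ligand that endothelial cells release themselves, had a log2 change of -0.09 (adjusted p = 0.763), Angpt4 had -0.29 (adjusted p = 0.756), and Angpt1, the activating ligand, was below background on all 11 arrays.

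Around Eng, 15 genes of TGF-beta and BMP signalling had a probe, of which 1 was higher and 1 lower. Smad9, a transducer of BMP signals, was 6.44, 6.03, 5.56, 5.58, 6.05 and 5.94 in CFA ganglia, and 6.89, 6.85, 7.28, 6.73 and 6.23 in contralateral ganglia. Contralateral 6 lay within the CFA values and the other 4 contralateral ganglia lay above all of them. The log2 change was -0.86 (SE 0.20, limma p = 0.00137, adjusted p = 0.241, exact permutation p = 0.00649), lower in 5 of 5 rats, and within slide 2 it was -0.04. Tgfbr2, a TGF-beta receptor, was higher by 0.60 (adjusted p = 0.458) and by 0.11 within slide 2, while Acvrl1, the endothelial receptor that works with Eng, had a log2 change of -0.28 (adjusted p = 0.563) and the BMP target Id1 one of -0.06 (adjusted p = 0.858).

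At the cell contacts, 1 of 13 further junction genes with a probe was lower and none was higher. Icam2, an adhesion molecule of resting endothelium, had a log2 change of -0.39 (SE 0.15, adjusted p = 0.435), was lower in 5 of 5 rats and differed by -0.14 within slide 2. Its call was lost with row medians subtracted (-0.26), and with slide (-0.14) or scan day (-0.25) as a block or slide as a random block (-0.34). It was also lost without any one of CFA 3 and 5 or contralateral 2, 3 and 6, over which the change was -0.36 to -0.31. Ocln, which sits beside Cldn5 in tight junctions, had a log2 change of 0.01 (adjusted p = 0.989) and the scaffold Tjp1 one of 0.21 (adjusted p = 0.519). Of the 5 adhesion molecules that inflamed endothelium displays, 0 passed, among them Icam1 with a log2 change of -0.03 (adjusted p = 0.926) and Vcam1 with -0.20 (adjusted p = 0.587), while Selp was below background on all arrays.

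In vessel Notch signalling, 1 of 8 genes was lower. The ligand Jag1 had a log2 change of -0.29 (adjusted p = 0.4), was lower in 5 of 5 rats and differed by -0.35 within slide 2. Its call was lost with slide (-0.35) or scan day (-0.27) as a block and kept with slide as a random block (-0.31). Dll4, the ligand of sprouting tips and arteries, had -0.24 (adjusted p = 0.488). None of 16 endothelial transcription factors passed, with Epas1, well above background on only some arrays, closest at -0.68 (adjusted p = 0.468). The ETS factors Fli1 and Ets1 had log2 changes of -0.28 (adjusted p = 0.528) and -0.07 (adjusted p = 0.869). None of 12 genes of haemostasis and vessel tone passed, with Nos3, the nitric oxide synthase of endothelium, at -0.05 (adjusted p = 0.921) and Tfpi at -0.13 (adjusted p = 0.613). Of 9 transporters of the blood-nerve barrier, 1 was lower, the efflux pump Abcg2 (log2 change -0.22, adjusted p = 0.451), which differed by 0.02 within slide 2. Abcg2 was lower in 5 of 5 rats, but its call was lost with the rat as a block (-0.20) and with row medians subtracted (-0.11). It was also lost with slide (0.02) or scan day (-0.03) as a block and with slide as a random block (-0.15). The same held without any one of CFA 3, 5, 6 and 8 or contralateral 1, 2, 3 and 6 (-0.22 to -0.19). The glucose carrier Slc2a1 had a log2 change of -0.01 (adjusted p = 0.978).

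Among 15 other endothelial markers none passed. Of these, 12 had a log2 change below 0, against 57.5% of all probes, and the median was -0.16, against -0.04 over all probes. Adgrl4 was closest, with -0.39 (adjusted p = 0.509). Of 4 genes of lymphatic endothelium none passed, with the chemokine Ccl21 at -0.47 (adjusted p = 0.759). Of 11 markers of mural cells 1 was lower, Notch3, the Notch receptor of vascular smooth muscle and pericytes, which also passed the study's threshold. It was 7.75, 7.23, 6.82, 6.01, 5.84 and 6.74 in CFA ganglia, and 8.23, 7.96, 9.04, 7.55 and 7.34 in contralateral ganglia, and CFA 1 lay among the contralateral values. Its log2 change was -1.29 (SE 0.39, limma p = 0.00688, adjusted p = 0.336, exact permutation p = 0.0152), lower in 5 of 5 rats, and within slide 2 it was 0.30. Other mural markers did not pass, with Pdgfrb at 0.21 (adjusted p = 0.628) and Rgs5 at -0.09 (adjusted p = 0.804).

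**Figure D4:**
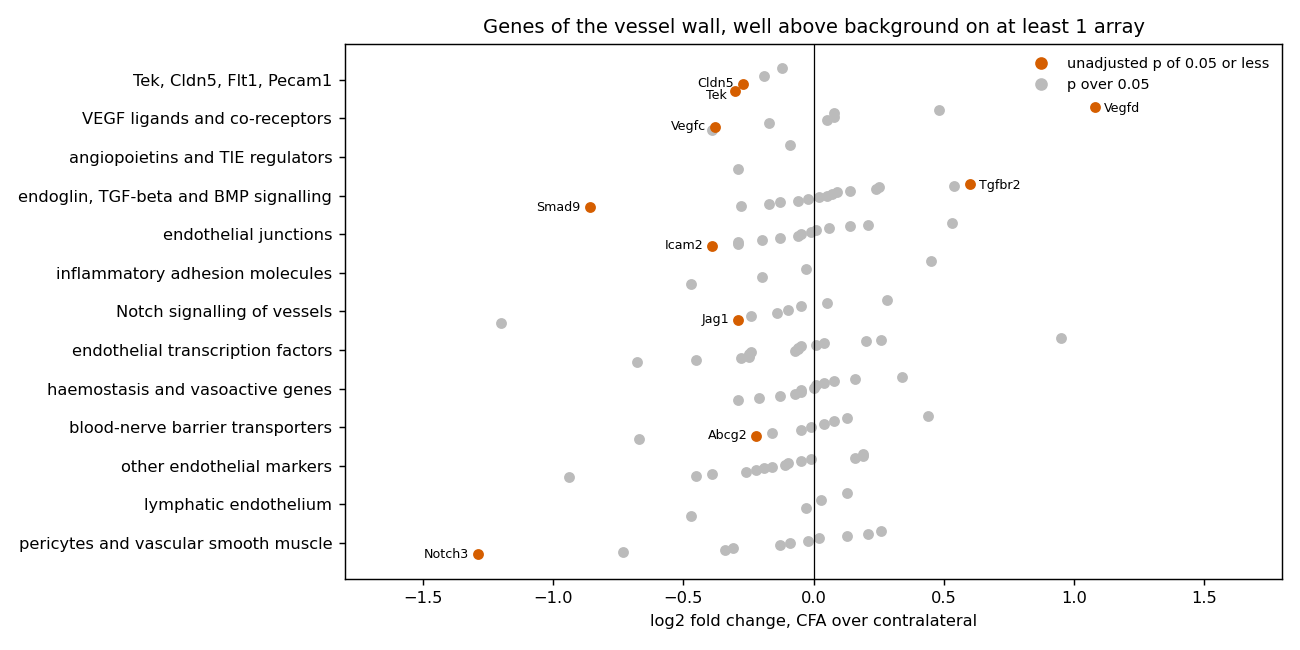
Log2 fold change of CFA over contralateral (x axis) for each gene of the vessel lists that was well above background on at least 1 array, by list (y axis). Orange points are genes with an unadjusted limma p of 0.05 or less and grey points the others, and Tek (-0.30) and Cldn5 (-0.27) stand in the top row.

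Markers of the other cells that a ganglion sample can hold were compared as well. The summed linear signal of 7 red blood cell genes was 228248 to 393047 in CFA ganglia and 279026 to 488043 in contralateral ganglia. Of the 7, 0 passed a p of 0.05, and all 7 had a log2 change below 0, against 57.5% of all probes. For 5 platelet genes the sums were 10328 to 17468 in CFA ganglia and 13522 to 19410 in contralateral ganglia, and for 12 macrophage genes they were 97522 to 149215 in CFA ganglia and 100295 to 138844 in contralateral ganglia, with none passing in either list. The same held for 7 fibroblast genes, 7 genes of satellite glia and 7 of skeletal muscle. The 7 genes of the anterior pituitary summed to 4218 to 307449 in CFA ganglia and 2854 to 107239 in contralateral ganglia, and none passed. Of 11 sensory neuron genes, Calca, which encodes CGRP, was higher (log2 change 0.26, adjusted p = 0.446) and differed by 0.19 within slide 2. Its call was lost under 75th percentile scaling (0.10), with the rat as a block (0.21) and without any one of CFA 1, 5 and 8 or contralateral 1, 2 and 3 (0.21 to 0.26). It was also lost with slide (0.19) or scan day (0.31) as a block and with slide as a random block (0.24). The part of these cells in the values of Tek and Cldn5 was not tested.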

How the data were processed

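Intensity values per spot were deposited by the authors as scanner output (Agilent Feature Extraction 11.0.1.1, 1 colour, 1 array per ganglion), background subtracted within the array. The authors also deposited a table of quantile normalised intensity values, used as an alternative. RNA was labelled and hybridised to a rat lncRNA and mRNA array. Of 43553 spots, 1417 controls were left out, outlier spots were set to missing, and the processed signals of 42136 spots were put on the log2 scale, quantile normalised and averaged per probe. All 24684 probes were fitted in limma 3.58.1 under R 4.3.3 with the group only, as the methods name no pairing, and adjusted by Benjamini-Hochberg. The fit was tested on simulated data with independent arrays and no slides. That test therefore says nothing on the overlap of side and slide. With slide as a random block, the consensus correlation of arrays on a slide was 0.425. For each member, and each gene that the rule takes from the lists, the difference in means was tested by exact permutation. This was two-sided, over 462 splits of the arrays, whose smallest p is 0.00216. Other genes named in the text had the limma test only. Correlations had 100000 resamples. "n" counts ganglia, and both sides of a rat are not independent animals. The number of arrays limits the precision.

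Arrays with the same scan time in the file headers were taken as 1 slide. The number in each sample title was taken as the rat, so equal numbers were read as 1 animal and pair the samples. Across probes, the deviations of the 2 sides so paired from their group means correlated by -0.083 to 0.133. The values themselves therefore do not show the pairing, on which all counts of rats and the rat block rest. Accessions were named through a RefSeq table of a later assembly (names only). The members and lists were chosen with earlier results of these data known. By rule the text names all members, from each list the genes past the study's threshold (at most 4) or else the gene with the smallest p, and the 8 genes most like the members. Other genes named beside them were chosen for their known role after their values were seen. Of several probes of a gene, the brightest was used. An item of the marker lists is not reported here, nor is the list that holds it. The alternatives were background correction, scaling, array rows, outliers, a filter on dim probes, rat, slide and scan day as blocks, and each array left out. Those without background subtraction and with normexp (offset 50) used the spot's median signal, since no mean signal was among the columns. Motifs were counted in Python 3.11.15 with pandas 2.3.3.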

Additional observations from a re-analysis of the deposited data

Results flagged for a closer look

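Dixon's test was applied to 46 groups of arrays for the genes named from the rule, and chance alone marks about 1 in 20 such groups. It marked 3, none of them a member. Gp9, a platelet glycoprotein, was 6.82 in CFA 6, against 6.10 to 6.35 in the other CFA ganglia. Tfpi, an inhibitor of the clotting cascade on endothelium, was 12.29 in contralateral 2, against 12.53 to 12.57 in the other contralateral ganglia. Kcnj10, the potassium channel of satellite glia, was 3.33 in contralateral 3, against 2.70 to 2.84 in the other contralateral ganglia, at a level near background.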

How the results depend on the processing

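Tek kept its direction in every alternative and a p of 0.05 or less in all but 3, slide as a block (-0.01), scan day as a block (-0.07) and slide as a random block (-0.22). For every gene, the fits with slide or scan day as a block rest on CFA 1 alone on the CFA side. No other CFA ganglion shared a slide or scan day with a contralateral one, and the slide block repeats the slide 2 difference. Over the arrays left out in turn it ran from -0.35 to -0.25, and its adjusted p over all alternatives from 0.168 to 1. Cldn5 no longer passed without background correction (-0.17), with normexp (-0.17), in the authors' table (-0.26), with row medians subtracted (-0.12), with slide (-0.01) or scan day (-0.01) as a block and with slide as a random block (-0.19), and it ran from -0.32 to -0.20 over the arrays left out. With the rat as a replicate block Tek was at -0.32, Cldn5 at -0.22, Flt1 at -0.16 and Pecam1 at -0.14, and no call of a member other than Cldn5 changed. Beside the members, the rat block lost the calls of Vegfd (1.03), Abcg2 (-0.20) and Calca (0.21), and no other call of the genes that the rule takes from the lists changed with it. Flt1 turned to 0.35 under the slide block and 0.17 under that of scan days, and ran from -0.28 to -0.06 over the arrays left out. The count of members with a p of 0.05 or less was 1 without background correction, with normexp, in the authors' table, with row medians subtracted and with the rat block, 0 with each of the 3 blocks of slide or scan day, and 1 to 2 over the arrays left out. The members' median, -0.23 in the main fit, moved to -0.01 with the slide block and to -0.04 with the block of scan days. It was -0.11 with row medians subtracted, -0.12 with normexp and -0.14 without background correction. The count of the 4 measured members past the study's threshold was 0 in every alternative run, while over all probes it was 498 and ran from 16 with normexp to 796 without contralateral 6. The causes were not tested.

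With slide as a block the sign turned for Vegfd (-0.22), Epas1 (0.14), Abcg2 (0.02), Adgrl4 (0.05), Notch3 (0.30), Gp9 (-0.22), Kcnj10 (0.93) and Lhb (-1.03), and, under the block of scan days, for Ccl21 (0.09) and Kcnj10 (0.80). The calls of Smad9 and Notch3 were lost with slide (-0.04 and 0.30) or scan day (-0.35 and -0.28) as a block. With slide as a random block Smad9 kept its call (-0.66) and Notch3 did not (-0.87). Ccl21 ran from -0.79 to 0.16 over the arrays left out. The correlation of Pecam1 with Flt1 no longer passed an unadjusted p of 0.05 without 2 arrays (-0.38) or with slide means removed (-0.77), nor did that of Flt1 with Cldn5 (0.47 and 0.30). That of Pecam1 with Cldn5 passed with group means removed (-0.73) and turned to 0.21 with slide means removed. A mean over several probes could not be had, since each member has 1 probe, and Vegfd, Epas1 and Kcnj10 had no value under the filter on dim probes. Signal over background limits Cdh5, Vegfd, Epas1 and Kcnj10.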
